A study of Mus musculus with 9 samples.

Results

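The 9 genes described here encode the catalytic subunit of the nuclear RNA exosome (Dis3) and proteins that bring RNA to the complex in the nucleus (Rbm7, Zcchc8, Zcchc7, Zfc3h1, C1d, Mphosph6, Ncbp1 and Srrt). They were listed by name, as the nuclease and its nuclear adaptors, with earlier results of these data known. They are 9 of the 24318 gene symbols measured. Each of them was found in both tables of the series and passed the filter on low values in both, so that none is missing from the tests. Their transcripts were followed in N2A cells, a mouse neuroblastoma line, after transfection with a scramble siRNA, an siRNA against Exosc3 (siEXOSC3) or an siRNA against Ddx1 (siDDX1), with 3 libraries per condition and 9 in all. All 9 libraries came from rRNA-depleted total RNA, all cells had gone through the lipid transfection, and the scramble cells are labelled as wild type. The treatment label reads untreated for every library, so the groups were taken from the sample titles, which name the siRNA. Which of the EXOSC3 siRNAs tested for protein depletion was used for sequencing is not stated, so each knockdown stands for a single condition in a single cell line.

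The RNA exosome has a non-catalytic ring topped by a cap of RNA-binding subunits, among them EXOSC3, through which RNA is threaded into the 3′ to 5′ exonuclease and endonuclease DIS3. In the nucleus the helicase MTR4 feeds it through adaptors. The NEXT complex (MTR4, RBM7 and ZCCHC8) is known for the removal of promoter upstream transcripts and other short unstable RNA, PAXT (MTR4, ZFC3H1 and PABPN1) for the removal of longer polyadenylated nuclear RNA, and the TRAMP complex, which holds ZCCHC7, for work in the nucleolus. The cap-binding protein NCBP1 and its partner ARS2, which Srrt encodes, link capped transcripts to these adaptors, and DDX1 is a DEAD-box RNA helicase.

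The values are FPKM (fragments per kilobase of transcript scaled for library depth, by options that are not given), a level per transcript length, in 2 tables that each hold a knockdown and the same 3 scramble libraries. The tables were scaled separately. Scramble values in the siEXOSC3 table were 1.00782 to 1.01188 times those in the siDDX1 table, so every knockdown was compared within its own table, and the difference between the knockdowns was not tested. Exosc3 fell to 15.5% ± 1.9 of scramble (SD, n = 3) in siEXOSC3 and stood at 97.3% ± 5.08 in siDDX1, while Ddx1 fell to 24.4% ± 2.99 in siDDX1. The libraries were close in depth, at 0.827 to 1.2 times scramble replicate 1 by the step size of the lowest values, although only 18.5 to 22.6% of the low genes lay at that step and the absolute depth is unknown. Of 11 neuroblastoma and neuronal markers, 8 reached 1 FPKM in scramble, among them Hand2, Tubb3 and Chga, whereas Nefl, Nefm and Th did not. The summed level of these 11 was 704.7 to 732 FPKM in siEXOSC3 against 391 to 420 FPKM in scramble, and 408.7 to 434.6 FPKM in siDDX1 against 388 to 415.1 FPKM in scramble of that table. Without overlap, 7 of the 11 were higher and 0 lower in siEXOSC3, and in siDDX1 3 were higher (Gap43, Mycn and Th) and 2 lower (Chga and Gata3). Of all genes tested, 23.8% were higher and 25.9% lower without overlap in siEXOSC3, and 17.0% higher and 17.8% lower in siDDX1. Markers of other cell types were near 0 except Pecam1 and Mbp (2 of 9), with sums of 8.451 to 11.59 FPKM in siEXOSC3 against 6.057 to 7.15 FPKM in scramble and of 6.948 to 7.593 FPKM in siDDX1 against 6.01 to 7.066 FPKM in scramble, and Ptprc, Aqp4, Col3a1 and Epcam were listed at or near 0. Of these 9 markers of other cell types, 2 were higher (Col1a1 and Pecam1) and 0 lower without overlap in siEXOSC3. In siDDX1 1 was higher (Pecam1) and 1 lower (Mbp). The part of all these marker changes in the results below was not tested, and in bulk RNA fewer cells of a kind and less RNA per cell cannot be told apart.

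In siEXOSC3 the levels of the 9 transcripts ran from 86.1% (Dis3) to 115% (Srrt) of scramble. In siEXOSC3, 0 of the 9 genes passed an adjusted p of 0.05 (limma, Benjamini-Hochberg over 11242 genes), where 32.4% of all genes tested did (16.7% higher and 15.7% lower). At an unadjusted p under 0.05 the count was 2 (Dis3 and Rbm7), against 45.4% of all genes. In siDDX1, 1 of the 9 passed, where 10.6% of 11104 genes did (5.61% higher and 5.03% lower), and this was Zfc3h1, the zinc finger protein at the centre of PAXT, which fell to 59.3% ± 17.8 of scramble. At an unadjusted p under 0.05 the count was 2 (Zfc3h1 and Zcchc7), against 30.1% of all genes. With 9 genes, counts of this size are a description of these genes, and no test of the group was made.

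The sizes of the changes are given beside those of all genes tested, with no test of the difference. In siEXOSC3 the median absolute log2 fold change was 0.15 for the 9 genes and 0.20 for all genes tested, and 6 of the 9 had a negative estimate, against 51.9% of all genes. In siDDX1 the median absolute log2 fold change was 0.05 for the 9 genes and 0.14 for all genes, and 4 of the 9 had a negative estimate, against 50.1% of all genes. In siDDX1 the estimates for Rbm7, Mphosph6 and Ncbp1 lay so near 0 that their sign changed with the scaling. The sum of the 9 levels was 318.7, 323.4 and 293.1 FPKM in siEXOSC3 against 330.2, 326.3 and 319.3 FPKM in scramble. The sum was 304.7, 319.3 and 326.6 FPKM in siDDX1 against 327.6, 323.8 and 315.6 FPKM in scramble of that table. The knockdown and scramble groups overlapped in both tables.

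**Figure D1:**
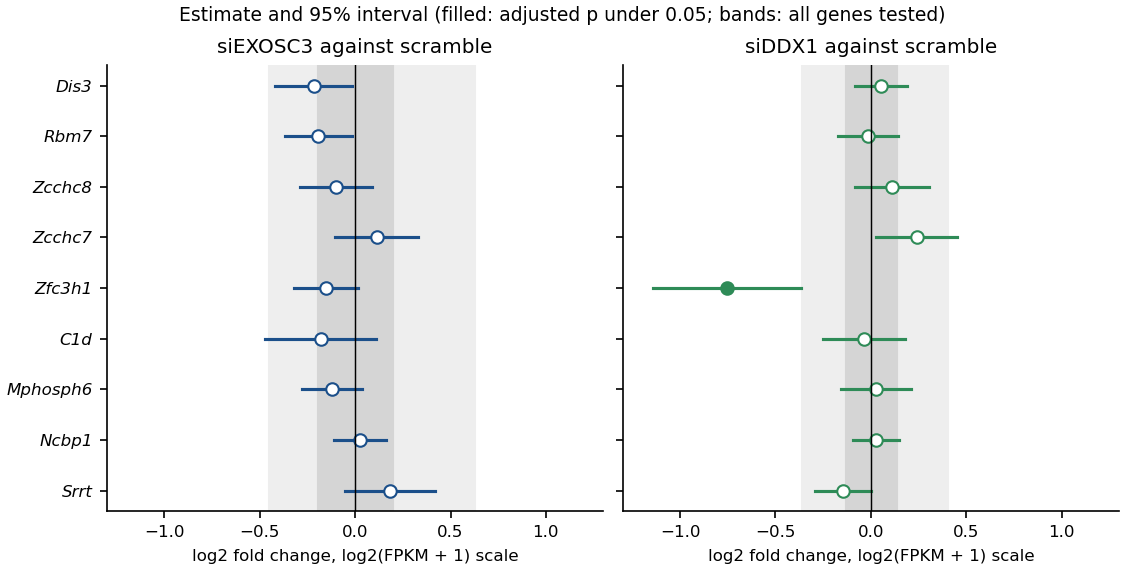
Log2 fold change of each of the 9 genes on the log2(FPKM + 1) scale with its 95% confidence interval, siEXOSC3 against scramble on the left and siDDX1 against scramble on the right (limma, 3 libraries against 3). Filled points have an adjusted p under 0.05, and the dark and light bands hold the central ranges of all genes tested (lower to upper quartile, and the 5th to the 95th percentile, which runs from -0.45 to 0.63 in siEXOSC3 and from -0.36 to 0.40 in siDDX1). Only Zfc3h1 in siDDX1, at -0.75, lies outside the light band, and it is the only filled point.

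In scramble cells the 9 transcripts spanned a wide range of levels. Mphosph6 stood highest at 77.9 FPKM ± 3.18 (SD, n = 3, siEXOSC3 table), above 89.7% of the genes tested, followed by Ncbp1 at 61 FPKM ± 0.663. Rbm7 (37.3 FPKM ± 2.5), Dis3 (35.4 FPKM ± 0.46) and Srrt (34.6 FPKM ± 2.17) came next, with neighbouring ranges that overlapped. Zfc3h1 (26 FPKM ± 1.1), Zcchc7 (24.2 FPKM ± 1.85) and C1d (22.1 FPKM ± 2.26) formed a lower group, again with overlapping neighbours. Zcchc8 was by far the lowest at 6.64 FPKM ± 0.373, above only 28.7% of the genes tested, although its protein is a core subunit of NEXT beside RBM7. The order was the same in the siDDX1 table. Ncbp1 varied least between scramble libraries (coefficient of variation 1.09%) and C1d most (10.2%), and the median over the 9 genes was 5.62% against 6.05% over all genes tested.

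**Figure D2:**
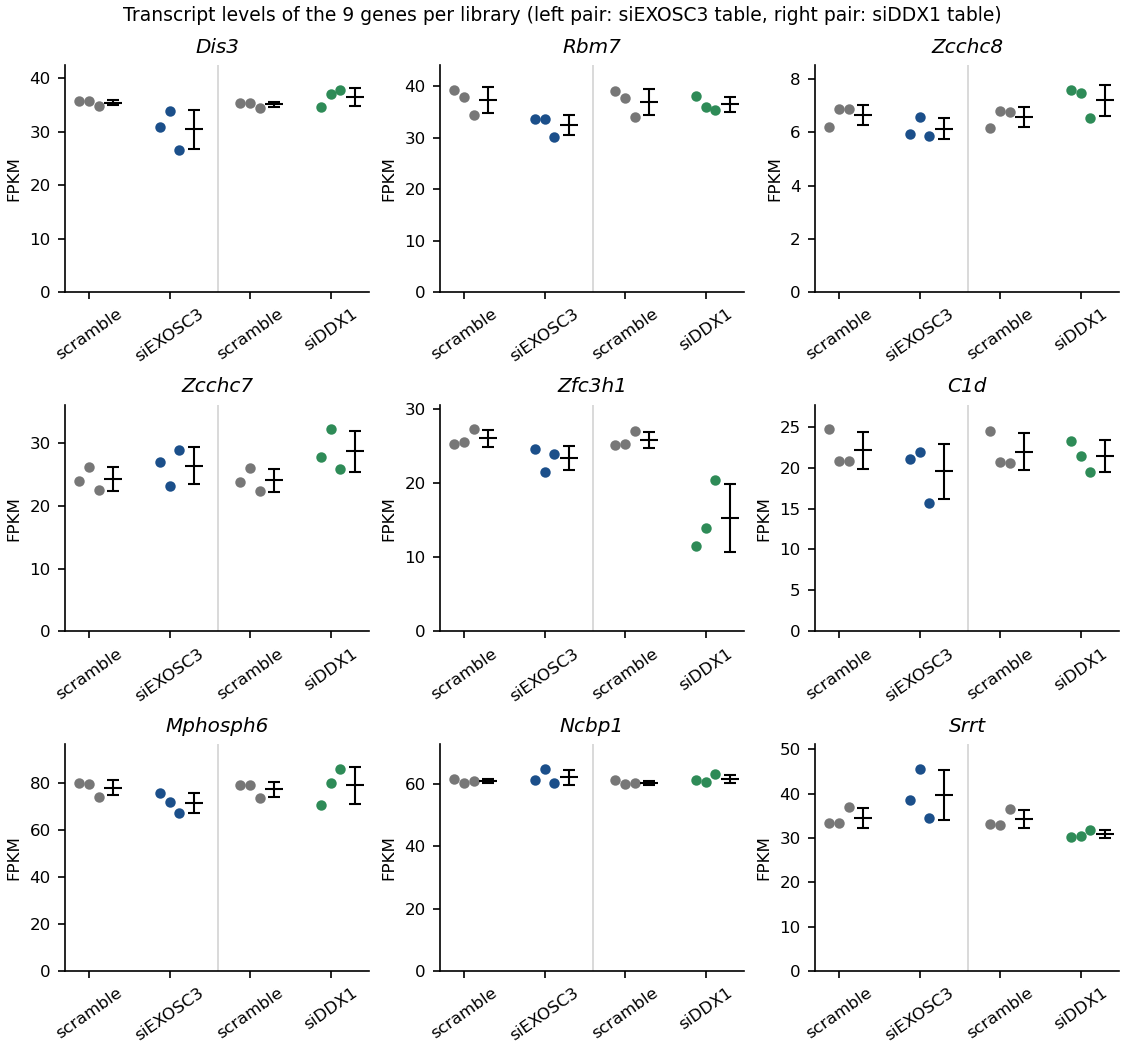
FPKM of each of the 9 genes in every library, with scramble (grey) and siEXOSC3 (blue) from the one table to the left of the line and scramble (grey) and siDDX1 (green) from the other table to its right. Points are the 3 libraries in replicate order, the horizontal mark is their mean and the bar is 1 SD. The siDDX1 points of Zfc3h1, from 11.5 to 20.4 FPKM, lie apart from the scramble points, which begin at 25.1 FPKM, while for most other genes the groups touch or overlap.

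Dis3, the nuclease, measured 30.9, 33.9 and 26.6 FPKM in siEXOSC3 and 35.7, 35.7 and 34.9 FPKM in scramble. Each siEXOSC3 library lay below each scramble library, as was the case for 3 of the 9 genes and, on this side, for 25.9% of all genes tested (23.8% on the higher side, 49.7% in either direction). Dis3 stood at 86.1% ± 10.3 of scramble, with a log2 fold change of -0.22 (SE 0.09, 95% interval -0.42 to -0.01) and an adjusted p of 0.0915 in limma, which missed the threshold. Without siEXOSC3 replicate 2, the library with the highest Dis3 value of that group, the log2 fold change was -0.29 with an adjusted p of 0.016 in limma, and without siEXOSC3 replicate 3, the lowest, it was -0.13 with an adjusted p of 0.181. In siDDX1 Dis3 measured 34.6, 37.1 and 37.9 FPKM against 35.4, 35.4 and 34.5 FPKM in scramble. These groups overlapped, and the log2 fold change was 0.05 (95% interval -0.08 to 0.19). The gene lies at chr14:99475853-99498989 on the minus strand of NCBIM37, the sequence of mm9, with 21 merged exons. Its 5′ end overlaps that of Pibf1 on the opposite strand by 325 exonic bases. The libraries carry no strand, so reads from such a shared stretch cannot be told apart, and the estimate for Pibf1 itself in siEXOSC3 was 0.02.

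Because DIS3 works at the base of the ring, its transcript was also set against the other exosome genes within each library, a ratio that does not depend on a library's scaling. The ratio of Dis3 to the mean of 9 Exosc genes other than Exosc3 was 0.91, 0.87 and 0.893 in siEXOSC3 and 0.923, 0.941 and 0.916 in scramble, and 0.893, 0.976 and 0.941 in siDDX1. The siEXOSC3 ratios lay just below those of scramble without overlap, a log2 difference of -0.06. Of the 10 other subunit genes (Exosc1, Exosc2, Exosc4 to Exosc10 and Dis3l, the gene of the cytoplasmic nuclease), 2 fell in siEXOSC3 and 0 rose, where 15.7% of all genes tested were called lower and 16.7% higher. At an unadjusted p under 0.05, 2 were lower and 0 higher, where 45.4% of all genes passed in either direction. The genes that fell were Exosc8 (log2 fold change -0.44, limma adjusted p = 0.0288) and Exosc7 (-0.34, adjusted p = 0.0306), both ring subunits. The median of the 10 was -0.14 and all 10 estimates were negative, where the median of all genes was -0.01. In siDDX1, where 5.03% of all genes were called lower and 5.61% higher, 1 of the 10 fell, the ring subunit Exosc6 (-0.39, limma adjusted p = 0.046), 0 rose and the median was 0.03. At an unadjusted p under 0.05, 2 were higher and 1 lower, where 30.1% of all genes passed in either direction.

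Of the NEXT subunits, Rbm7 and Zcchc8 were not called in either knockdown, and Skiv2l2 is described below among the partners. Rbm7, the RNA-binding subunit, measured 33.7, 33.6 and 30.2 FPKM in siEXOSC3 and 39.4, 38 and 34.5 FPKM in scramble. The groups did not overlap, with Rbm7 at 87.1% ± 5.43 of scramble, but the log2 fold change of -0.19 (SE 0.08, 95% interval -0.37 to -0.02) had an adjusted p of 0.0844 in limma. In siDDX1 it measured 38.2, 36 and 35.4 FPKM against 39.1, 37.7 and 34.1 FPKM, which overlap, with a log2 fold change of -0.02 (95% interval -0.17 to 0.14). Zcchc8, the scaffold of NEXT, measured 5.94, 6.58 and 5.86 FPKM in siEXOSC3 and 6.21, 6.86 and 6.86 FPKM in scramble (log2 fold change -0.10, 95% interval -0.29 to 0.09). In siDDX1 Zcchc8 measured 7.61, 7.47 and 6.53 FPKM against 6.16, 6.8 and 6.78 FPKM (log2 fold change 0.11, 95% interval -0.08 to 0.31). Zcchc8 thus overlapped with scramble in both tables. The ratio of Rbm7 to Zcchc8 ran from 5.04 to 6.34 in scramble, from 5.11 to 5.67 in siEXOSC3 and from 4.82 to 5.42 in siDDX1. Both knockdowns overlapped with scramble, although 2 of the 3 siDDX1 libraries lay below the lowest scramble ratio (log2 difference -0.14).

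Zfc3h1 was the member with the largest absolute estimate, and the only one called, in siDDX1. It lies at chr10:114822015-114869828 on the plus strand of NCBIM37 with 36 merged exons, and the gene Thap2 starts 523 bases away on the opposite strand. Rbm7, at chr9:48296814-48303413 on the minus strand, has a divergent neighbour too, Gm5617, whose start lies 36 bases away. The promoters of these 2 genes are shown because the values on their 2 sides can be compared. Each runs from 250 bases before to 50 bases after the RefSeq start on GRCm38.p6, 5′ to 3′ on the strand of the gene, with CG dinucleotides in capitals. Zfc3h1 is chr10:115384709-115385008 and Rbm7 is chr9:48495281-48495580.
Zfc3h1: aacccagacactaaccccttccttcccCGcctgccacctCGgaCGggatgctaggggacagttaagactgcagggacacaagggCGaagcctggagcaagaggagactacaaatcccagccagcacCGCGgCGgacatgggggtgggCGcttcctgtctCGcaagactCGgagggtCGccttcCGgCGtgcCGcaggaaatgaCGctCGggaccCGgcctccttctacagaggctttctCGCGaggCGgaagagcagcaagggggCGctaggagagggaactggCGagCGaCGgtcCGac
Rbm7: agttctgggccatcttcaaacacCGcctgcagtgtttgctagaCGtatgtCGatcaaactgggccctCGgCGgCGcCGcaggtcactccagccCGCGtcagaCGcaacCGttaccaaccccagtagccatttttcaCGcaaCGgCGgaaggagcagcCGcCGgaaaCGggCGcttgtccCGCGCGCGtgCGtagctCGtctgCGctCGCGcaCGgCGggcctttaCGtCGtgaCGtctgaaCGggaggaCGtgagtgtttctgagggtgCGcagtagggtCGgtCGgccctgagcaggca
The Zfc3h1 window holds 25 CG, a number that 18.4% of 32851 promoters of that length reach, and the Rbm7 window holds 37, which 5.58% reach. Motifs were searched as exact letters on both strands, and none of these was found in either window. The TATA box core (TATAAA) was in 13.6% of all promoters and in 2 of the 9 members (Ncbp1 and Zcchc7). These letters are the last 6 bases of the Ncbp1 window, after the start, and lie on the opposite strand in Zcchc7. The place of a motif within the window was not considered. The CCAAT box was in 37.4% of all promoters and in 1 member (Dis3), and the GC box (GGGCGG) in 35.7% of all promoters and in 6 members.

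In siDDX1 Zfc3h1 measured 11.5, 14 and 20.4 FPKM, against 25.1, 25.3 and 27 FPKM in scramble. All 3 knockdown libraries lay below all 3 scramble libraries, as for 2 of the 9 genes and 17.8% of all genes tested on this side (17.0% on the higher side, 34.7% in either direction), but replicate 3 was well above the others. The log2 fold change was -0.75 (SE 0.17, 95% interval -1.14 to -0.37) with an adjusted p of 0.0295 in limma, and only 0.405% of the 11104 genes tested had a lower estimate. An exact permutation test gave p = 0.1, the smallest that 3 libraries against 3 allow. The spread between the siDDX1 libraries, a coefficient of variation of 30%, was the highest among the 9 genes. Replicate 3 was also the library with the most Ddx1 left, at 34.8 FPKM against 28 and 28.7 FPKM in the other siDDX1 libraries and 119.1 to 129.6 FPKM in scramble, and the part of this in the Zfc3h1 value was not tested.

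The call on Zfc3h1 did not survive the loss of most single libraries, while its size did. The adjusted p in limma was 0.0652 without siDDX1 replicate 1 and 0.0975 without siDDX1 replicate 2. Leaving out a scramble library gave adjusted p-values of 0.107 for replicate 1, 0.077 for replicate 2 and 0.118 for replicate 3. Without siDDX1 replicate 3 the log2 fold change was -0.97 with an adjusted p of 0.000228. Over these 6 fits the log2 fold change ran from -0.97 to -0.58, always lower in siDDX1. With no filter on low FPKM the adjusted p in limma was 0.0784.

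In siEXOSC3 Zfc3h1 measured 24.6, 21.5 and 23.9 FPKM against 25.3, 25.5 and 27.3 FPKM in scramble. These groups did not overlap either, but lay close together, at 89.6% ± 6.13 of scramble with a log2 fold change of -0.15 (95% interval -0.32 to 0.01, limma adjusted p = 0.137). Zfc3h1 took 7.66, 7.82 and 8.55% of the summed level of the 9 genes in scramble, 7.72, 6.66 and 8.14% in siEXOSC3 and 3.76, 4.4 and 6.24% in siDDX1. The 2 comparisons share their scramble libraries.

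The divergent gene Thap2, a THAP domain gene, measured 9.84, 9.44 and 12.1 FPKM in siDDX1 and 12.3, 11.7 and 11.8 FPKM in scramble. Replicates 1 and 2 of siDDX1 lay below every scramble library and replicate 3 within their range, with a log2 fold change of -0.19 (95% interval -0.40 to 0.03, limma adjusted p = 0.222). The gene on the other side of the Zfc3h1 promoter was thus not called in siDDX1. In siEXOSC3 Thap2 measured 10, 11.4 and 7.07 FPKM against 12.4, 11.8 and 12 FPKM (log2 fold change -0.34, 95% interval -0.67 to -0.01, limma adjusted p = 0.102). Each siEXOSC3 library lay below each scramble library, as for 25.9% of all genes tested, but Thap2 was not called there either.

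**Figure D3:**
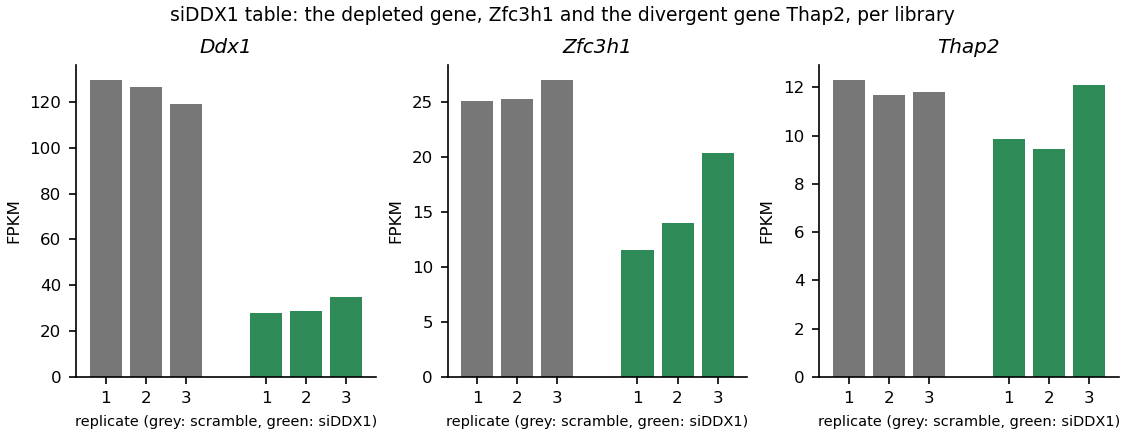
FPKM in each library of the siDDX1 table for the depleted gene Ddx1, for Zfc3h1 and for Thap2, the gene that starts on the opposite strand next to Zfc3h1. Bars are single libraries by replicate number, grey for scramble and green for siDDX1. Ddx1 and Zfc3h1 are lower in all 3 siDDX1 libraries and highest among them in replicate 3, and Thap2 is also highest there, with replicates 1 and 2 (9.84 and 9.44 FPKM) below every scramble library and replicate 3 (12.1 FPKM) within the scramble range.

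Since NEXT and PAXT share MTR4, the transcripts of their own subunits were set against each other. The ratio of Zcchc8 to Zfc3h1 was 0.246, 0.269 and 0.251 in scramble and 0.242, 0.306 and 0.245 in siEXOSC3. In siDDX1 it was 0.663, 0.532 and 0.32, above every scramble library, a log2 difference of 0.92. Of this difference Zfc3h1 accounts for the larger term, as the estimate for Zcchc8 alone was 0.11.

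**Figure D4:**
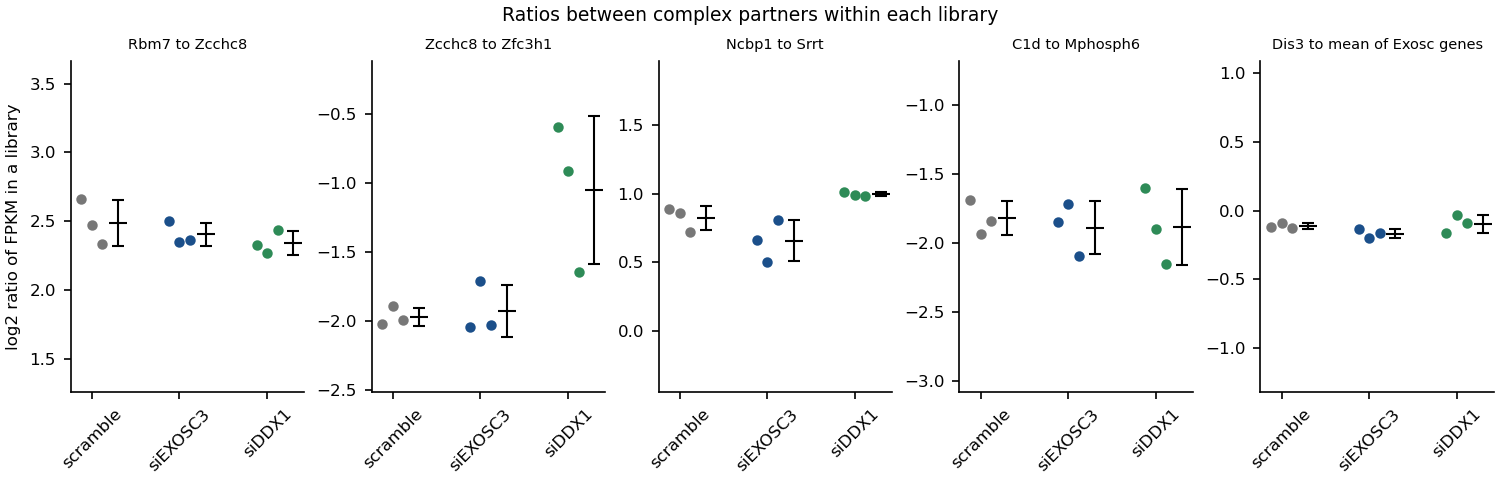
Log2 ratio of FPKM between named partners within each library, for scramble (grey, siEXOSC3 table), siEXOSC3 (blue) and siDDX1 (green), with points for the 3 libraries in replicate order, the mean and 1 SD. All panels span the same number of log2 units. The ratio of Zcchc8 to Zfc3h1 in siDDX1, from 0.32 to 0.663 before the log, stands above scramble at 0.246 to 0.269, and the ratio of Ncbp1 to Srrt is higher in siDDX1 by a log2 difference of 0.18.

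The genes whose values over the 6 knockdown libraries, each taken relative to the scramble mean of its table, were nearest to those of Zfc3h1 among 11054 genes were Gm14325, Rnf6, which encodes a RING finger ubiquitin ligase, and Slc16a5, a member of the monocarboxylate transporter family. Their root mean square differences from Zfc3h1 were 0.14 or 0.15 on the log2 scale. In siDDX1 their log2 fold changes were -0.60, -0.63 and -0.69, short of the -0.75 of Zfc3h1, and they were chosen for this likeness. For Dis3, the member with the largest absolute estimate in siEXOSC3, the nearest genes were Nucks1, Ccdc91 and Mmadhc, with differences of 0.04 or 0.05.

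Zcchc7, the zinc knuckle subunit of TRAMP, measured 27, 23.1 and 28.9 FPKM in siEXOSC3 and 24, 26.2 and 22.5 FPKM in scramble, which overlap (log2 fold change 0.11, 95% interval -0.11 to 0.33). In siDDX1 it measured 27.8, 32.2 and 25.9 FPKM against 23.8, 26 and 22.3 FPKM in scramble. Only the lowest siDDX1 library fell within the scramble range, and Zcchc7 stood at 119% ± 13.4 of scramble. The log2 fold change was 0.24 (SE 0.09, 95% interval 0.03 to 0.45) with an adjusted p of 0.127 in limma, which missed the threshold. Without siDDX1 replicate 3 it was 0.31 with an adjusted p of 0.0222 in limma, and without siDDX1 replicate 2, the highest library, it was 0.16 with an adjusted p of 0.341. Zcchc7 (chr4:44768749-44945087, plus strand) and Ncbp1 (chr4:46151485-46185275, plus strand) lie on the chromosome of the depleted Exosc3, 0.384 Mb and 0.796 Mb from it, and neither was called in siEXOSC3.

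The exosome-associated proteins C1D and MPHOSPH6 bind the complex beside MTR4 and are known for a part in rRNA maturation. C1d (chr11:17157582-17169179, plus strand) measured 21, 21.9 and 15.7 FPKM in siEXOSC3 and 24.7, 20.8 and 20.8 FPKM in scramble, with a log2 fold change of -0.18 (95% interval -0.47 to 0.11), and without siEXOSC3 replicate 3, the lowest library, the estimate was -0.04. In siDDX1 it measured 23.3, 21.4 and 19.4 FPKM against 24.5, 20.7 and 20.6 FPKM (log2 fold change -0.04, 95% interval -0.25 to 0.18). C1d had the widest interval of the 9 genes in siEXOSC3, which still reached down to only 72.1% of scramble. Mphosph6 (chr8:120315545-120325829, minus strand) measured 75.6, 72 and 67.2 FPKM in siEXOSC3 and 79.9, 79.6 and 74.2 FPKM in scramble, with a log2 fold change of -0.12 (95% interval -0.28 to 0.04). In siDDX1 it measured 70.6, 80 and 86.1 FPKM against 79.3, 79 and 73.4 FPKM (log2 fold change 0.03, 95% interval -0.16 to 0.21). Both genes overlapped with scramble in both tables, and so did the ratio of C1d to Mphosph6, with log2 differences of -0.07 in siEXOSC3 and -0.06 in siDDX1.

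Ncbp1, the large subunit of the nuclear cap-binding complex, was the steadiest of the 9. It measured 61.1, 64.9 and 60.3 FPKM in siEXOSC3 against 61.6, 60.3 and 61 FPKM in scramble, and 61.1, 60.6 and 63.1 FPKM in siDDX1 against 61.1, 59.8 and 60.3 FPKM. The log2 fold changes were 0.03 in siEXOSC3 (95% interval -0.11 to 0.16) and 0.03 in siDDX1 (95% interval -0.09 to 0.15). On the log2(FPKM + 1) scale these intervals run from 92.6 to 112% and from 93.8 to 111% of scramble. Ncbp1 overlaps Tstd2 by 82 and Xpa by 77 exonic bases on the opposite strand, and neither of those genes was called.

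Srrt, the gene of ARS2 (chr5:137736932-137748902, minus strand), measured 38.7, 45.7 and 34.5 FPKM in siEXOSC3 and 33.3, 33.3 and 37.1 FPKM in scramble. The groups overlapped, with a log2 fold change of 0.18 (SE 0.10, 95% interval -0.05 to 0.42, limma adjusted p = 0.197), and without siEXOSC3 replicate 3 it was 0.28 with an adjusted p of 0.0409. Without siEXOSC3 replicate 2, the highest library, the estimate was 0.08 with an adjusted p of 0.461 in limma. In siDDX1 Srrt measured 30.2, 30.4 and 31.9 FPKM against 33.1, 33 and 36.6 FPKM. Here every knockdown library lay below every scramble library, at 90% ± 2.73 of scramble, but the log2 fold change of -0.15 (SE 0.06, 95% interval -0.29 to 0.00) had an adjusted p of 0.169 in limma. The ratio of Ncbp1 to Srrt was 1.85, 1.81 and 1.65 in scramble, 1.58, 1.42 and 1.75 in siEXOSC3 and 2.02, 1.99 and 1.98 in siDDX1. The siDDX1 ratios lay above all of scramble, a log2 difference of 0.18, while the siEXOSC3 ratios overlapped with scramble at a log2 difference of -0.16.

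The partners of these adaptors were examined as a list of 13 genes: Skiv2l2 (MTR4), Papd5, Papd7, Pabpn1, Ncbp2, Zc3h18, Zc3h3, Zc3h14, Phax, Nrde2, Ncbp3 (listed as 1200014J11Rik), Zc3h4 and Wdr82. In siEXOSC3 3 of the 13 fell and 0 rose in limma (6 lower and 0 higher at an unadjusted p under 0.05), where 15.7% of all genes were called lower and 45.4% had an unadjusted p under 0.05 in either direction. Without overlap, 8 of the 13 were lower and 0 higher in siEXOSC3, where 25.9% and 23.8% of all genes tested were. Their median log2 fold change was -0.21 and 11 estimates were negative, where the median of all genes was -0.01 and 51.9% were negative. Wdr82, a WD-repeat protein that acts with ZC3H4 in transcription termination, measured 17.9, 21.7 and 14 FPKM against 26.4, 25.1 and 25.4 FPKM in scramble (log2 fold change -0.51, adjusted p = 0.0211). Zc3h18, which bridges the cap-binding complex to NEXT, fell by 0.33 on the log2 scale (limma adjusted p = 0.0283). Skiv2l2, the helicase common to NEXT, PAXT and TRAMP, measured 74.9, 80.2 and 74.6 FPKM against 88.4, 91.7 and 86.6 FPKM in scramble, a level of 86.1% ± 3.53. Its log2 fold change of -0.21 passed the test (limma adjusted p = 0.0314), whereas Dis3, with an estimate of -0.22, did not. The SE was 0.06 for Skiv2l2 and 0.09 for Dis3. In siDDX1 0 of the 13 passed in limma (1, Ncbp2, at an unadjusted p under 0.05), where 10.6% of all genes were called and 30.1% had an unadjusted p under 0.05. The median of the 13 was -0.07 and 9 estimates were negative, where 50.1% of all genes had a negative estimate. Without overlap, 2 of the 13 were lower and 0 higher in siDDX1, where 17.8% and 17.0% of all genes were. Pabpn1, the poly(A)-binding partner of ZFC3H1 in PAXT, measured 70.5, 76.8 and 92 FPKM in siDDX1 and 70, 73.3 and 74.3 FPKM in scramble (log2 fold change 0.13, limma adjusted p = 0.396). Of the PAXT genes, Zfc3h1 passed the test in siDDX1 and neither Pabpn1 nor Skiv2l2 did.

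**Figure D5:**
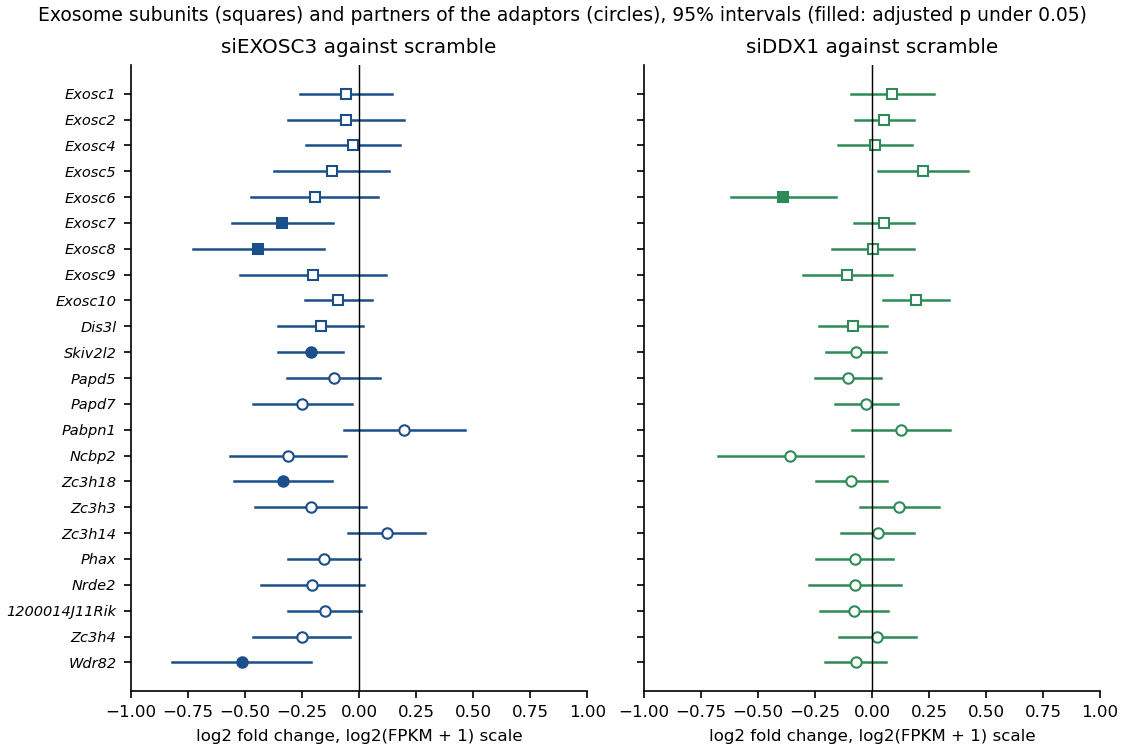
Log2 fold change with its 95% confidence interval for 10 exosome subunit genes (squares) and 13 partner genes of the adaptors (circles) on the log2(FPKM + 1) scale, siEXOSC3 on the left and siDDX1 on the right. Filled symbols have an adjusted p under 0.05 in limma. In siEXOSC3 5 symbols are filled, all below 0, down to -0.51 for Wdr82, and in siDDX1 Exosc6 at -0.39 is the only filled symbol.

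Some direct neighbours of the 9 genes rose in siEXOSC3. Within 5 kb of 7 of the members the annotation places 12 other genes, of which 7 could be tested, and 3 of these rose in siEXOSC3 in limma, where 16.7% of all genes tested were called higher. Of these 3, Ufsp1 and Ache both lie beside Srrt. The count in siEXOSC3 was 4 at an unadjusted p under 0.05, with Thap2 lower, against 45.4% of all genes in either direction. None of the 7 was called in siDDX1 (0 also at an unadjusted p under 0.05), where 10.6% and 30.1% of all genes were. Gm5617, annotated as protein coding and transcribed away from Rbm7 across the divergent promoter printed above, measured 8.21, 8.26 and 10.2 FPKM in siEXOSC3 and 3.08, 3.25 and 3.6 FPKM in scramble. This was 268% ± 33.7 of scramble, a log2 fold change of 1.19 (SE 0.10, limma adjusted p = 0.000522), beside the -0.19 of Rbm7. In siDDX1 Gm5617 measured 4.35, 2.31 and 4.11 FPKM against 3.05, 3.22 and 3.56 FPKM in scramble (log2 fold change 0.07, limma adjusted p = 0.826). In GENCODE vM1 Rbm7 and Gm5617 share no exonic bases.

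At the 3′ end of Srrt, Ufsp1, the gene of a UFM1-specific protease, ends 39 bases away on the opposite strand, and without strand, reads from beyond either 3′ end cannot be told apart from the other gene. Ufsp1 measured 9.01, 8.27 and 8.24 FPKM in siEXOSC3 and 4.07, 6.06 and 5.82 FPKM in scramble (log2 fold change 0.60, SE 0.13, limma adjusted p = 0.0104). Ache, the acetylcholinesterase gene, lies 1237 bases from Srrt on the same side and measured 18.1, 12.7 and 23.5 FPKM in siEXOSC3 against 3.55, 4.13 and 4.07 FPKM in scramble. Its log2 fold change was 1.92 (SE 0.18, limma adjusted p = 0.000732), the neuronal markers Tubb3 and Gap43 also being higher in siEXOSC3, at 162 to 166 FPKM against 86.7 to 105 FPKM and at 223 to 248 FPKM against 77 to 84.2 FPKM. The part of these markers in the Ache value was not tested. In siDDX1 the log2 fold changes were -0.13 for Ufsp1 and -0.04 for Ache, and Trip6, on the other side of Srrt, averaged under 1 FPKM and was not tested. It measured 1.07, 0.97 and 0.758 FPKM in siDDX1 against 0.441, 0.75 and 0.537 FPKM in scramble, all higher in siDDX1, and overlapped with scramble in siEXOSC3.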

How the data were processed

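The authors depleted rRNA from total RNA, made nondirectional libraries and aligned the reads to mm9. The labels' processing notes name TopHat2 2.1.0 and Cuffdiff 2.2.1. FPKM per gene and library were deposited as 2 tables. The annotation and scaling options of Cuffdiff are not given in the sources used here. Since FPKM carry no fragment totals, neither a count model nor a counting interval was possible.

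From the deposited FPKM, log2(FPKM + 1) was fitted, where a gene averaged 1 FPKM or more over a table's 6 libraries, with limma 3.58.1 in R 4.3.3 (lmFit, eBayes with an intensity trend, no covariates), two-sided, Benjamini-Hochberg over all genes tested, threshold 0.05. Fold changes are on the log2(FPKM + 1) scale, which understates those of low genes, and 95% intervals are per gene. The libraries are biological triplicates per the methods. The fit was tested on simulated normal values with 200 genes shifted by 1 on the log2 scale. It recovered 95.0% of them for siEXOSC3 and 91.0% for siDDX1. That shift is larger than the estimate of any of the 9 genes, so the recovery of changes of their size was not tested.

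The genes named were the 9 members, the depleted genes, called genes of the lists of exosome subunits and adaptor partners (at most 3 each), genes within 5 kb, and the 3 genes nearest in pattern to the member with the largest change. Other list genes named (Ncbp2, Pabpn1) were chosen after their values were seen. Members and lists were chosen with earlier results of these data known. Gene positions came from GENCODE vM1 on NCBIM37, promoters from RefSeq on GRCm38.p6 (9 of 9 matched by symbol). One marker gene of the cell line is not reported here. Figures were drawn with matplotlib 3.10.9. Alternatives were another pseudocount (0.1), a filter at 5 FPKM or none, quantile or median scaling, eBayes without the trend, a replicate block, a threshold of 0.01, and the removal of single libraries.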

Additional observations from a re-analysis of the deposited data

How the results depend on the processing

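For the 9 genes, the count of calls in siEXOSC3 was 0 in the fit reported and under all 8 alternatives other than leaving out a library, and ran from 0 to 1 when each library was left out. In siDDX1 it was 1 in the fit reported, 0 with no filter on low FPKM and 0 at an adjusted p under 0.01, and ran from 0 to 2 when each library was left out. The cause was not tested, beyond the larger number of genes tested with no filter (16981) and the stricter threshold. The number of all genes called in siEXOSC3 was 1349 at an adjusted p under 0.01 and ran from 1610 (without scramble replicate 1) to 4887 (without siEXOSC3 replicate 2). In siDDX1 it was 717 with no filter, 183 at an adjusted p under 0.01, and ran from 158 (without scramble replicate 1) to 3524 (without siDDX1 replicate 3). Over 252 values of single genes under alternatives, 231 kept their direction and their side of the threshold, 10 reversed, 7 lost the call and 4 gained it. The 7 that lost the call were all values of Zfc3h1 in siDDX1, the only call in the fit reported. They were 5 of its 6 fits without a library and 2 of its 8 other alternatives. All that reversed were within 0.11 of 0. In siEXOSC3 this was Ncbp1 (-0.0057 to 0.0462 over the fits without a library, the low end without siEXOSC3 replicate 2). In siDDX1 these were Mphosph6 and Ncbp1 (-0.0100 and -0.0094 under quantile normalization), Rbm7 (0.0099 under median centring) and, over the fits without a library, Rbm7 (-0.0705 to 0.0244), C1d (-0.0971 to 0.0441) and Mphosph6 (-0.0379 to 0.1038).

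The replicate numbers are shared by the groups, but the deviations of same-numbered libraries correlated at 0.03, -0.31 and -0.13 in siEXOSC3 and -0.01, 0.38 and 0.37 in siDDX1. By the criterion used (every pair above 0.1) the numbers did not pair the samples. In siDDX1 the pairs of replicates 2 and 3 with the other number correlated at -0.38 and -0.37, so a shared replicate structure there is not excluded. With the replicate block the count among the 9 genes was 0 in siEXOSC3 and 2 in siDDX1, where Zcchc7 (log2 fold change 0.24, limma adjusted p = 0.0372) joined Zfc3h1, and 2449 and 1893 of all genes were called. The absolute depth is unknown, and the intervals printed are per gene and not adjusted, so that some exclude 0 for genes that were not called. Among the 9 genes these were Dis3 and Rbm7 in siEXOSC3 and Zcchc7 in siDDX1, and some neighbour and list genes also had such intervals.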
